A study of Mus musculus with 2 samples.

Results

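The 9 genes described here encode muscle ubiquitin ligases or their substrate-binding subunits: Trim54, Trim55 and Trim63, Fbxo32, and Asb2, Asb11, Asb12, Asb14 and Asb15. They were chosen by symbol from the 29383 genes of the table, with their read counts in both libraries known, so all values below describe these libraries and none is a test. Total RNA came from the apex of E12.5 mouse embryonic hearts, with tissue of 8 hearts pooled for each genotype and 1 library per genotype. The heterozygote carries Nkx2-5cre and 1 floxed Ezh2 copy (Nkx2-5cre, Ezh2f/+), and the mutant carries the same Cre and 2 floxed copies (Nkx2-5cre, Ezh2f/f). Nkx2-5cre recombines in the Nkx2-5 lineage, so cells of other lineages in the tissue keep an unrecombined gene, and the control shares the Cre and has 1 floxed copy itself. The labels call the cells cardiomyocytes and name no sort. The spread between pools was not measured, and each interval given is a 95% interval of counting error only.

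Ubiquitin ligases attach ubiquitin to chosen proteins, many of which are then degraded by the proteasome. In striated muscle the MuRF proteins, encoded by Trim63 (MuRF1), Trim55 (MuRF2) and Trim54 (MuRF3), carry a RING domain and sit on the sarcomere and on microtubules. Fbxo32 encodes atrogin-1, an F-box protein that brings substrates to a complex of Skp1 and cullin 1. Asb proteins have ankyrin repeats for binding substrates and a SOCS box that joins them to elongins B and C and cullin 5. Trim63 and Fbxo32 are best known as genes switched on in muscle wasting, where FOXO factors drive them, while Asb2 acts during muscle differentiation and directs the breakdown of filamins.

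The promoters of Asb11, Asb12, Asb2 and Trim63 are printed to set the gene that stood apart between genotypes beside its neighbour in the family on the same chromosome, the abundant Asb gene that differed little, and the abundant RING ligase gene. Each line holds 300 bases from RefSeq (GRCm38.p6), 250 before and 50 from the first base of the gene onward, 5′ to 3′ on the strand of the gene. Capitals mark every match, on either strand, to one of 8 short motifs: the E-box CANNTG bound by basic helix-loop-helix factors, a GATA motif AGATAA, an NK2-type motif TNAAGTG, a FOXO motif GTAAACA, a TEAD motif CATTCC, the TATA box TATAAA, and the MEF2 and CArG motifs. The NK2-type motif can share its last bases with an E-box.
Asb11, chrX:164436744-164437043, plus strand: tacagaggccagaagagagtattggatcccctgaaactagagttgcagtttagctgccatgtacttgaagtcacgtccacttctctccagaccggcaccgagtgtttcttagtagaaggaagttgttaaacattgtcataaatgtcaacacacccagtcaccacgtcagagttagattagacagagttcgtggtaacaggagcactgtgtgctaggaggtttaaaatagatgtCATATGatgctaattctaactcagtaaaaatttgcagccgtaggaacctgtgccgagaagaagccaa
Asb12, chrX:95478080-95478379, minus strand: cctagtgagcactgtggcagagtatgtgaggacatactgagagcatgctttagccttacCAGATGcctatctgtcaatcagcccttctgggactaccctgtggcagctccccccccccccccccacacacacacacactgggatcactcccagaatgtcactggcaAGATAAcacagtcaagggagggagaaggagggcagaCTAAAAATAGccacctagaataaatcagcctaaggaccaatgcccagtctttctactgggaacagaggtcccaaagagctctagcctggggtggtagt
Asb2 upstream start, chr12:103355952-103356251, minus strand: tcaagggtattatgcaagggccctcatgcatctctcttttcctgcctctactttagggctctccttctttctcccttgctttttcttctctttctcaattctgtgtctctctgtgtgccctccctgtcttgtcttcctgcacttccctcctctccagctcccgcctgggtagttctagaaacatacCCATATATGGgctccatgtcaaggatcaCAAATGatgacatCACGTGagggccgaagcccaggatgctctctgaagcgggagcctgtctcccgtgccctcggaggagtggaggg
Asb2 downstream start, chr12:103338341-103338640, minus strand: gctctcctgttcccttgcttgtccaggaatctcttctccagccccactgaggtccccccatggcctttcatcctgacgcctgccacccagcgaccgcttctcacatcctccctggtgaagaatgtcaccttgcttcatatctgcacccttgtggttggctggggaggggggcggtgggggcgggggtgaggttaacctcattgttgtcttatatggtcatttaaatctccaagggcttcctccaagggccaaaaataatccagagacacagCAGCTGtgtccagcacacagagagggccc
Trim63, chr4:134314870-134315169, plus strand: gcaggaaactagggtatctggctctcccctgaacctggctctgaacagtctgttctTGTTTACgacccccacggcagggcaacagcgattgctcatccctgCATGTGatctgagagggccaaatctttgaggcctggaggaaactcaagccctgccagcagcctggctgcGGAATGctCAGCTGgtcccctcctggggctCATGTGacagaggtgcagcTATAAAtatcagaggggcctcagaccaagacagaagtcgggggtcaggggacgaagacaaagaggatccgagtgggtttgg

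Promoter sequences were matched by symbol for 7 of the 9 genes, 8 start sites in all; Fbxo32 and Trim55 had no entry. The printed Asb11 sequence held 1 E-box, at -17 to -12 counted from the first base of the gene as 0, and none of the other motifs. The Asb12 sequence held 1 MEF2 match at -48 to -39, a motif found in 0.557% of 32851 promoters, beside 1 GATA match and 1 E-box. The upstream Asb2 start had a CArG match at -64 to -55 (1.63% of promoters) and 2 E-boxes, whereas the start 17611 bases downstream had 1 E-box. Trim63 had a FOXO match on the minus strand at -194 to -188 (3.65% of promoters), TATAAA at -31 to -26 (13.6%), a TEAD match (14.7%) and 3 E-boxes. E-boxes occurred in 8 of 8 of these sequences and in 72.3% of all promoters, the NK2-type motif in 1 of 8 and 11.5%, and AGATAA in 2 of 8 and 11.2%. The ratio of observed to expected CpG was between 0 (Asb12) and 0.485 (Asb11) in the 8 sequences, against a median of 0.384 over all promoters, and 0.6 or more in 35.8% of all. A match is a description of letters and not a binding site.

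Of the 9 genes, Asb11 was the one at least 2-fold lower in the mutant on the log2(CPM + 1) scale, and none was at least 2-fold higher. Over all 16185 genes with at least 1 CPM (counts scaled to a common library size, the unit used throughout) in a library, 0.173% were at least 2-fold lower and 0.605% at least 2-fold higher on that scale. Each count of genes 2-fold apart below is on the log2(CPM + 1) scale over genes with at least 1 CPM, and it understates the plain ratio of genes with few reads, such as Asb14. Of the 9 genes 8 reached 1 CPM, Asb14 only through the heterozygote, and Asb15 did not. The counting interval of the ratio lay below 1 for 2 of the 8 (Asb11 and Trim55), against 19.1% of all genes compared, and above 1 for Fbxo32, against 17.4%. The median log2 ratio of mutant to heterozygote was -0.25 over the 8 genes and -0.21 over all 9, beside -0.008 over all genes compared. Of all 16185 genes compared, 8288 had log2 ratios below 0 and 7897 above, against which the counts below 0 of each list are to be read. In pooled tissue, fewer cells of a type and less RNA per cell cannot be told apart.

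**Figure D1:**
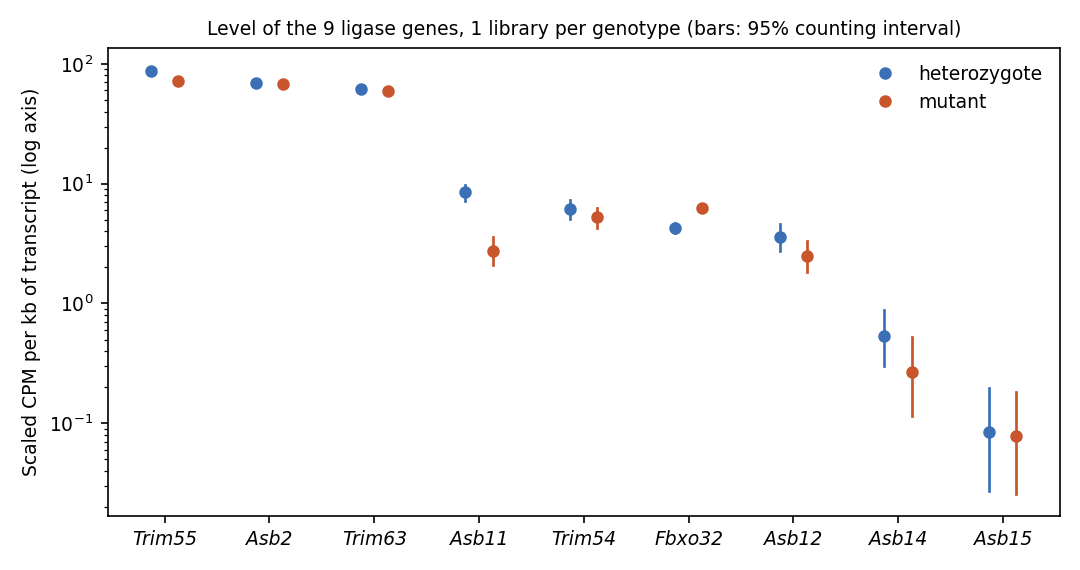
Scaled CPM per kb of transcript (vertical log axis) of the 9 genes in the heterozygote (blue) and the mutant (orange), 1 library each, with 95% counting intervals as bars. Trim55, Asb2 and Trim63 lie between 59.9 and 87.4 CPM per kb, and all other genes are at or below 8.44.

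Per kb of transcript, Trim55, Asb2 and Trim63 were the most abundant of the 9 genes in both libraries and made up 90.5% of the summed level in the heterozygote and 92.1% in the mutant. In the heterozygote the order was Trim55 (87.4 CPM per kb), Asb2 (69.8), Trim63 (62.0), Asb11 (8.44), Trim54 (6.13), Fbxo32 (4.28), Asb12 (3.58), Asb14 (0.538) and Asb15 (0.0846). Counting intervals of neighbours in this order overlapped for Asb11 and Trim54 and for Fbxo32 and Asb12. In the mutant Fbxo32 followed the top 3 at 6.25 CPM per kb, ahead of Trim54 at 5.22 and of Asb11 at 2.76, which stood next to Asb12 at 2.51. There the intervals overlapped for Trim55 and Asb2, Fbxo32 and Trim54, Asb11 and Asb12, and Asb14 and Asb15. Lengths are those of the longest coding transcript in GENCODE M21, and a gene that uses a shorter transcript would stand higher.

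Trim55, the gene of MuRF2, had 3068 heterozygote reads and 2696 mutant reads, which is 227 against 185 scaled CPM. The mutant-to-heterozygote ratio was 0.817 (0.775 to 0.860), and 0.868 (0.824 to 0.914) when libraries were scaled by their totals alone. Trim63, the gene of MuRF1, was nearly level, with 1582 reads against 1644, or 117 and 113 scaled CPM. Its ratio was 0.966 (0.901 to 1.04), and it was 1.03 (0.957 to 1.10), on the other side of 1, with library totals. Trim54, the gene of MuRF3, was the scarce member of the trio, at 119 reads against 109 and 8.80 against 7.49 scaled CPM. Its ratio of 0.851 had an interval of 0.650 to 1.11, so a difference was not detectable at this depth. Within the reads of the trio, a comparison that needs no scaling between libraries, Trim55 took 64.3% (Wilson interval 63.0 to 65.7) of 4769 in the heterozygote and 60.6% (59.2 to 62.0) of 4449 in the mutant. Trim63 took 33.2% (31.9 to 34.5) and 37.0% (35.5 to 38.4). Trim54 took 2.50% (2.09 to 2.98) and 2.45% (2.04 to 2.95). The shares of Trim55 and Trim63 had intervals that did not overlap between the libraries, and those of Trim54 overlapped.

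Fbxo32, which encodes atrogin-1, was the 1 gene of the 9 with a higher level in the mutant whose interval lay beyond 1. It had 404 heterozygote reads and 635 mutant reads, or 29.9 against 43.6 scaled CPM. The ratio was 1.46 (1.29 to 1.66), short of 2-fold, and 1.55 (1.37 to 1.76) with library totals. Its log2 ratio of 0.53 was the 729th highest of 16185 genes. Among regulators of these genes, the FOXO gene listed as Foxo3a, named after its value was seen, had 262 reads against 406 and a ratio of 1.44 (1.23 to 1.69). A second model, Fkhr2, lies inside Foxo3a in the table and can hold some of the same reads. The other FOXO genes of the list were nearer to 1, as Foxo1 had a ratio of 1.13 (1.01 to 1.27) and Foxo4 0.978 (0.854 to 1.12). Klf15, of the same list and also named after its value was seen, had 70 reads against 46. Its ratio was 0.611 (0.412 to 0.898). Of the 19 regulators compared, 10 had intervals above 1 and 4 below. Trim63, also known from muscle wasting, had an interval (0.901 to 1.04) wholly below that of Fbxo32. Whether the FOXO genes or Klf15 bear on the value of Fbxo32 or Trim63 was not tested.

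Asb11 had 165 heterozygote reads and 58 mutant reads, or 12.2 against 3.98 scaled CPM. Asb11 is a SOCS box protein known from zebrafish for acting on the Notch ligand Delta and from muscle progenitor cells. The heterozygote-to-mutant ratio was 3.06 (2.26 to 4.20), and the authors' deposited table, which scales by totals, gives 2.88. Its log2 ratio of -1.40 was the 8th lowest of 16185 genes. Asb2, which targets filamins, was by contrast nearly level with 2540 reads against 2636, or 188 and 181 scaled CPM. The mutant-to-heterozygote ratio of Asb2 was 0.964 (0.913 to 1.02), and 1.02 (0.970 to 1.08), on the other side of 1, with library totals. RefSeq lists 2 start sites for Asb2, and the gene-level count does not separate their transcripts.

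Asb12 and Asb14 had values on the same side as Asb11, with too few reads to set them apart from a ratio of 1. Asb12 had 61 reads against 46, a ratio of 0.701 (0.467 to 1.04), and Asb14 had 15 against 8, a ratio of 0.496 (0.182 to 1.25). Asb15 had 5 reads in each library, a ratio of 0.929 (0.214 to 4.04), which leaves a change of several fold in either direction undetected. No other model overlaps any of the 9 genes in the table, and each has 1 row.

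**Figure D2:**
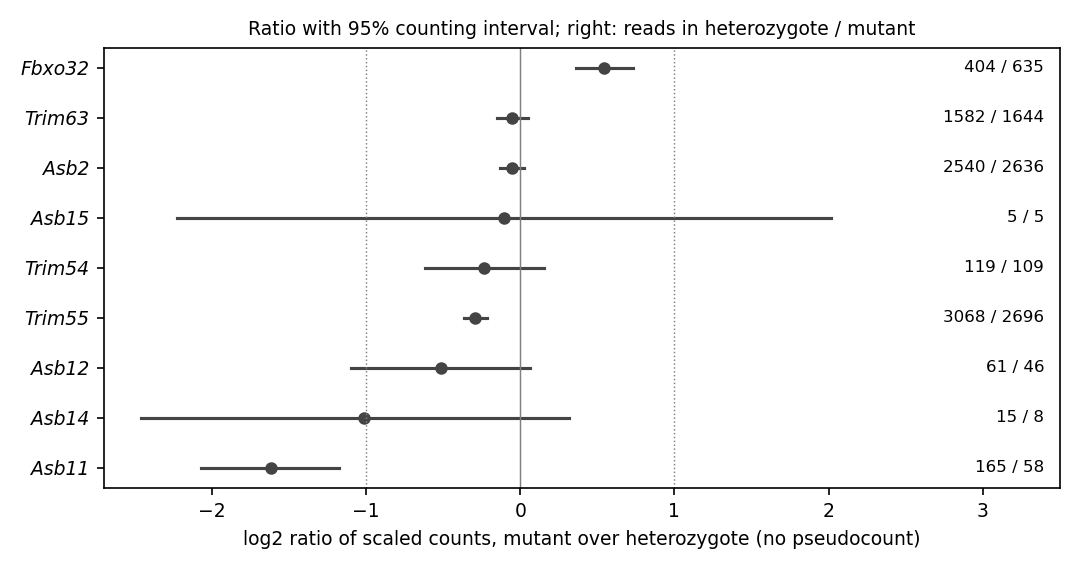
Ratio of scaled counts, mutant over heterozygote, on a log2 axis with 95% counting intervals for each of the 9 genes; the numbers at the right are reads in the heterozygote and the mutant. Asb11 and Trim55 lie below 0 and Fbxo32 above 0 with their whole interval, and Trim63 and Asb2, at -0.05 each, lie on the other side of 0 when libraries are scaled by totals.

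The whole Asb family, 18 genes in the table, was compared by its reads within each library. Asb2 took 50.9% (Wilson interval 49.5 to 52.3) of 4988 Asb reads in the heterozygote and 50.3% (48.9 to 51.6) of 5244 in the mutant. The share of Asb11 was 3.31% (2.85 to 3.84) and 1.11% (0.857 to 1.43), so the intervals did not overlap. Of the 13 Asb genes outside the 9, 9 reached 1 CPM, of which 4 had log2 ratios below 0 and 5 above, with a median of 0.02 and none 2-fold apart. The most abundant were Asb8, with 754 reads against 811 and a ratio of 0.999 (0.904 to 1.11), and Asb4, with 657 against 810 and a ratio of 1.15 (1.03 to 1.27). Asb10, named after its value was seen, was on the same side as Asb11, with 61 reads against 41 and a ratio of 0.625 (0.410 to 0.943).

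**Figure D3:**
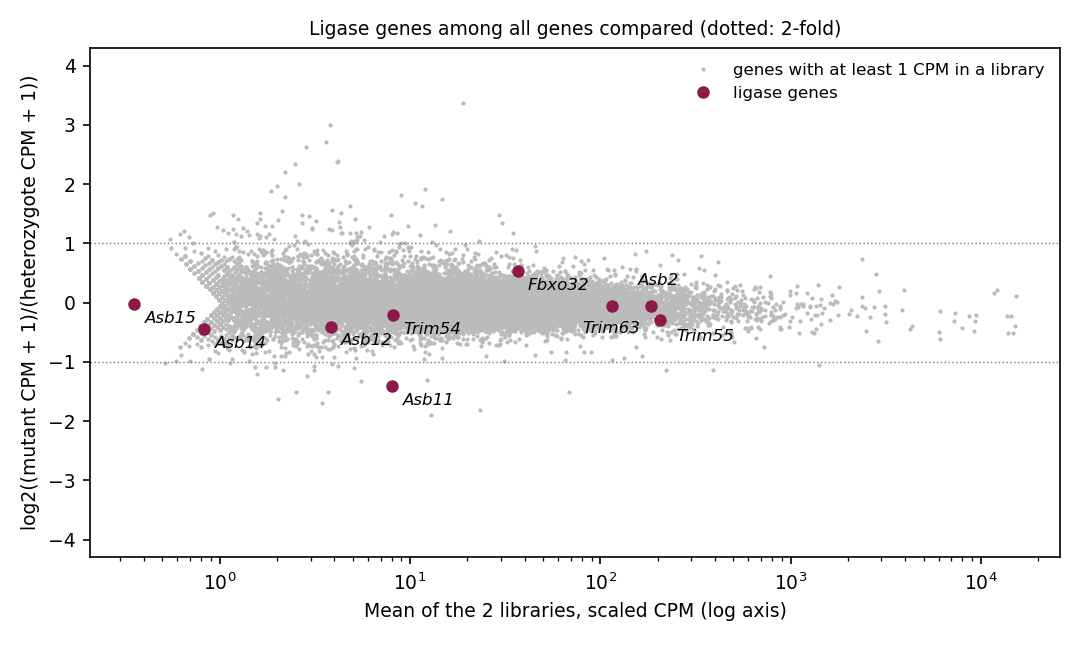
Log2 ratio with a pseudocount of 1 CPM (vertical) against the mean of both libraries in scaled CPM (horizontal log axis) for the 16185 genes compared (grey) and the 9 ligase genes (dark red, Asb15 being under 1 CPM), with dotted lines at 2-fold. Asb11 lies at -1.40, below the lower line, and Fbxo32 at 0.53 lies below the upper line.

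By the files' coordinates, for which the sources used here name no build, the genes lie on 8 chromosomes, with Asb11 (160874926 to 160897032, plus strand) and Asb12 (92665538 to 92673468, minus strand) both on chromosome X. The others are Asb2 on chromosome 12 (104559352 to 104594211), Asb14 on 14 (27707798 to 27728441), Asb15 on 6 (24478144 to 24520984), Fbxo32 on 15 (58011634 to 58046429), Trim54 on 5 (31419085 to 31439999), Trim55 on 3 (19544460 to 19591599) and Trim63 on 4 (133871035 to 133885544). Of the 552 genes of chromosome X with at least 1 CPM, Asb11 was the 1 that was at least 2-fold lower, none was 2-fold higher, and their median log2 ratio was -0.08. Within 500 kb of Asb11, 7 genes reached 1 CPM, with log2 ratios from -0.41 to 0.26 and none 2-fold apart. The nearest, Piga, which acts in the synthesis of membrane anchors, ends 3.08 kb before Asb11 and had 184 reads against 191, a ratio of 0.965 (0.784 to 1.19). On the other side lies Asb9, 38.8 kb away, with no read in either library. Around Fbxo32, 10 genes reached 1 CPM, with log2 ratios from -0.25 to 0.03. The neighbour at 99.7 kb, listed as 8230402K04Rik, is the muscle kelch gene Klhl38 by its RefSeq synonym, with 193 reads against 207 and a ratio of 0.997 (0.815 to 1.22). Among neighbours with at least 1 CPM within 500 kb of the 9 genes, none was 2-fold apart on the log2(CPM + 1) scale. By plain ratio 1 of them was, Sef at 124 kb from Asb14, with 23 reads against 54 and a ratio of 2.18 (1.32 to 3.72). Il17rd, listed at the same distance from Asb14, had more reads, 147 against 237. The interval of its ratio, 1.21 to 1.85, lay above 1 and below 2-fold. Both were named after their values were seen. Sef and Il17rd begin at the same coordinate, so they can be models of the same gene and not separate neighbours. Whether they share reads was not tested.

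**Figure D4:**
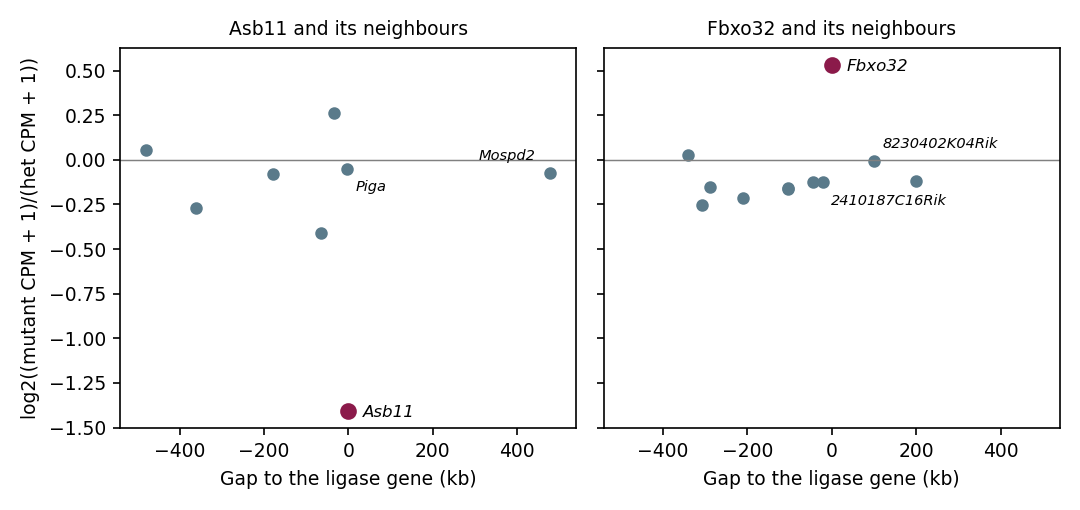
Log2 ratio with a pseudocount of 1 CPM (vertical) of the genes with at least 1 CPM within 500 kb of Asb11 (left) and Fbxo32 (right), against the gap to the ligase gene in kb (negative: lower coordinates). Asb11 at -1.40 and Fbxo32 at 0.53 (dark red) lie outside the range of their neighbours (-0.41 to 0.26 and -0.25 to 0.03).

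The core of the cullin complexes that Asb proteins and Fbxo32 join had 14 of 14 genes at 1 CPM, 11 with log2 ratios below 0 and 3 above (8 and 6 with library totals), with a median of -0.10 (-0.02 with library totals) and none 2-fold apart. The most abundant were Nedd8, the ubiquitin-like activator of cullins, with a ratio of 0.806 (0.768 to 0.846), and Tceb1, which encodes elongin C, with 3311 reads against 2723 and a ratio of 0.764 (0.726 to 0.804). The scaffolds, named after their values were seen, were at 0.862 (0.798 to 0.930) for Cul1, the partner of Fbxo32, and 0.855 (0.765 to 0.956) for Cul5, the partner of Asb proteins. Of the 14 intervals, 5 lay below 1 and 2 above. Those above, also named after their values were seen, were Cand1 at 1.12 (1.04 to 1.21) and Ube2m at 1.12 (1.03 to 1.22). Over all 16185 genes compared, 8288 lay below 0. Ubiquitin and proteasome genes had 28 of 36 below 0 (24 with library totals) with a median of -0.15 (-0.06 with library totals) and none 2-fold apart. Among them Ubb, which encodes polyubiquitin, had 43112 reads against 44400 and a ratio of 0.957 (0.944 to 0.970). The medians of these lists were 0.02 and -0.06 once the trend of log2 ratios with GC content and length was removed. Cul1 then stood at -0.09 instead of -0.21, and Cul5 at -0.07 instead of -0.22.

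Other ligase genes of striated muscle had 15 of 23 below 0 and 8 above, a median of -0.06 and none 2-fold apart on the log2(CPM + 1) scale. The most abundant were Nedd4, a HECT ligase, at 0.951 (0.932 to 0.972), and Fbxl22, an F-box gene of the cardiac sarcomere, at 0.944 (0.885 to 1.01). Kbtbd5, the kelch gene now called Klhl40, named after its value was seen, lay nearest to Asb11 in plain ratio, with 19 reads against 7 and 0.342 (0.122 to 0.850), or -0.70 on the log2(CPM + 1) scale. The muscle F-box gene Fbxo40 had 0.946 (0.798 to 1.12) and Trim72, of membrane repair, 1.05 (0.795 to 1.40). Both were also chosen after their values were seen. The direction of this list depends on scaling, since with library totals 7 genes lay below 0 and 16 above, with a median of 0.02.

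Reported targets and partners of the ligases went both ways, with 9 of 22 below 0, 13 above and a median of 0.02. Ckm, the muscle creatine kinase that MuRF1 binds, was the 1 at least 2-fold apart, with 4125 reads against 2019 and a ratio of 0.455 (0.431 to 0.480). Among filamin genes, whose proteins Asb2 targets, Flnc had a ratio of 1.28 (1.24 to 1.32) and Flna 1.04 (0.995 to 1.08). Titin (Ttn), which anchors MuRF proteins, had 1.16 (1.15 to 1.18) and the MuRF1 target Tnni3 0.805 (0.786 to 0.824). After removal of the GC and length trend, the log2 ratio of Flnc was 0.07 instead of 0.35 and that of Flna -0.13 instead of 0.05. Ttn then stood at 0.07 instead of 0.22, and Tnni3 at -0.26 instead of -0.31. Ppp3ca, a calcineurin gene whose protein atrogin-1 targets in the heart, had 1.04 (0.940 to 1.15). Regulators of ligase transcription had 8 of 19 below 0 and 11 above, with a median of 0.11 and none 2-fold apart. The most abundant, Gata4 and Igf1r, had ratios of 1.12 (1.07 to 1.18) and 1.16 (1.10 to 1.22). The median of the regulators was -0.05 after removal of the GC and length trend.

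**Figure D5:**
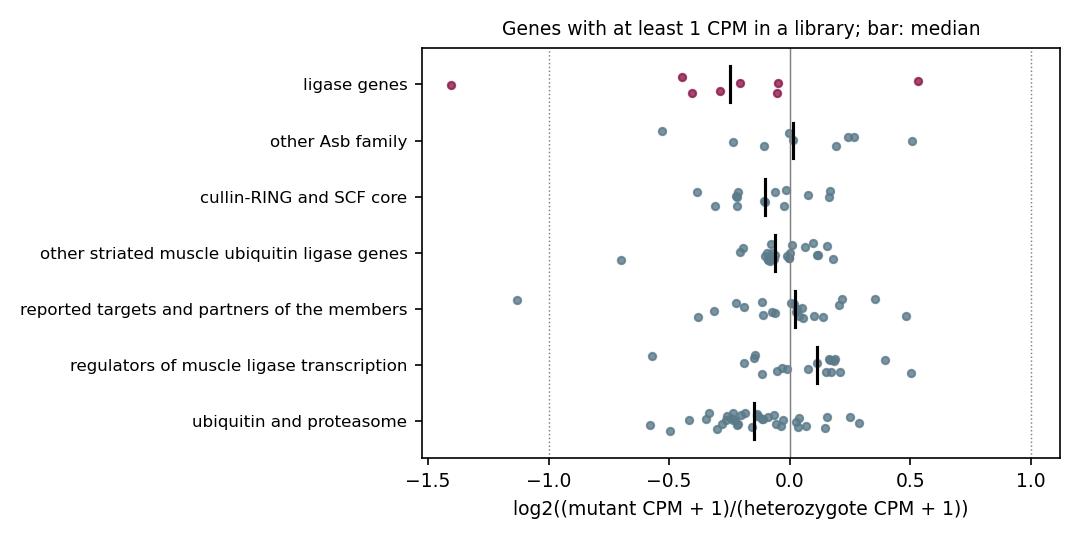
Log2 ratio with a pseudocount of 1 CPM (horizontal) of genes with at least 1 CPM in the ligase genes and the 6 pathway lists (rows; cell type lists are not drawn), 1 point per gene, with a bar at the median. The medians run from -0.25 for the ligase genes to 0.11 for the regulators (that of the other muscle ligases changes sign, from -0.06 to 0.02, with library totals), and Asb11 at -1.40 is the lowest point drawn.

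In the plane of both libraries' log2(CPM + 1) levels, the genes nearest to Asb11 were Clca4, Pms1 and Eppk1, at distances of 0.47, 0.49 and 0.50, so none was close. Over these 2 libraries their heterozygote-to-mutant ratios were 2.01 (1.47 to 2.79), 1.76 (1.31 to 2.38) and 1.76 (1.33 to 2.35). The genes were chosen by these same levels, so ratios on the side of Asb11 follow from the choice.

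Depth was alike, with 13944617 heterozygote reads and 14122579 mutant reads. Ezh2 had 493 reads against 319 and a ratio of 0.601 (0.521 to 0.694) over all its exons, floxed or not. Cardiomyocyte markers were all detected (12 of 12), summed to 41528 CPM (heterozygote) and 44011 CPM (mutant), and went both ways, with 7 of 12 intervals above 1 and 5 below. Their median log2 ratio was 0.17, and -0.006 after removal of the GC and length trend. Skeletal muscle markers, the other tissue in which Asb11, Asb14 and Asb15 are known, summed to 27.8 and 41.4 CPM, with Pax7, Myf5 and Myf6 at 0 in both libraries and Myod1 at 0 and 1 reads. Tnnt3, on that list, had 146 reads against 294 and a ratio of 1.87 (1.53 to 2.30), and Mylpf 1.22 (0.970 to 1.53). Summed CPM was 839 against 809 for endothelium, 196 against 203 for epicardium and 11.2 against 12.2 for neural markers. It was lower in the mutant for erythroid markers (6264 against 4380, Hbb-b1 at 0.481, 0.471 to 0.491) and for leukocyte markers (62.4 against 50.6, S100a9 at 14 reads against 0). Leukocyte markers with at least 1 CPM went both ways, with 6 of 9 log2 ratios below 0 and 3 above. Of their intervals, 3 lay below 1 and 1 above. For smooth muscle and pericyte markers summed CPM was 300.3 against 292.7, most of it from Abcc9 and Cspg4. Of their 7 log2 ratios, 5 were below 0 and 2 above, with 4 intervals below 1 and 1 above. The interval above 1 was that of Cspg4, with 984 reads against 1394 and a ratio of 1.32 (1.21 to 1.43). Rgs5 of that list, a pericyte gene, had 48 reads against 7 and a ratio of 0.136 (0.0517 to 0.301), lower than that of Asb11, and Kcnj8 and Myh11, named after their values were seen, had 0.527 (0.352 to 0.780) and 0.483 (0.227 to 0.981). The part of any of these in the values of the 9 genes was not tested. Log2 ratios varied with the GC content of transcripts in these libraries, and after removal of that trend and of length Asb11 stood at -1.22, Fbxo32 at 0.54, Trim55 at -0.23 and Asb2, at 59.4% GC, at -0.23 instead of -0.05. Trim54, at 59.9% GC, then stood at -0.31 instead of -0.21.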

How the data were processed

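The deposited table gives whole-number read counts per gene model in each library, per the file headers. The CPM columns are the authors' values relative to the total reads of a library, without length scaling; they matched the counts. The authors' fold column holds the ratio of heterozygote to mutant CPM, and their deposited p-value names no test and was not used. The sources used here name no aligner, counter, strand or build. Here, rows of 1 symbol were summed and CPM were rescaled with TMM factors (0.970 and 1.03) in edgeR 4.0.16 under R 4.3.3, which made no test. Log2 ratios used a pseudocount of 1 CPM, and genes that reached 1 CPM in either library were compared by a 2-fold size rule. Printed ratios are quotients of scaled counts, with exact conditional Poisson intervals, whose script was tested on simulated data. Reads are not independent molecules, so intervals cover counting error only. GC content and length came from GENCODE M21; a quadratic trend was fitted over the 10255 genes whose mean reached 5 CPM. With a value for 77.1% of genes compared, under 80%, that check is void for counts over all genes; all 9 ligase genes have one. Members and lists were chosen with earlier results of these data known. Named genes are the members, Ezh2, up to 3 genes per list at least 2-fold apart or else its 2 most abundant, and the 3 genes nearest to Asb11. Others are marked as named after their values were seen, or are partners of a member (Flnc, Flna, Ttn, Tnni3, Ppp3ca) or listed regulators (Foxo1, Foxo4), picked likewise. Some genes are not reported here by name. List symbols were matched directly or by RefSeq synonym, and Hba-a1 was not matched. Alternatives were other scalings, pseudocounts, filters, removal of the GC trend, 1 member left out for the median, and only the row with the most reads.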

Additional observations from a re-analysis of the deposited data

How the results depend on the processing

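Across 7 alternatives for each of the 9 genes, 57 of 63 log2 ratios kept their sign and moved by no more than the counting error of the reported value. For each gene, 1 of the 7 used only the row with the most reads. That alternative could not differ, because each gene has 1 row, so its values in this tally carry no information. The sign changed for Asb2 and Trim63 with library totals (Asb2 0.035 and Trim63 0.037) and for Asb15 after removal of the GC and length trend (0.077). That of Asb11 ranged from -1.59 to -0.94 and that of Fbxo32 from 0.48 to 0.62. With a pseudocount of 5 CPM the number of members at least 2-fold lower was 0 instead of 1, because the larger pseudocount brings Asb11 to -0.94. The median over members stayed below 0 under every alternative run, from -0.29 with 1 member left out to -0.13 with a floor of 5 CPM. Over all genes, 28 lower and 98 higher became 143 and 312 with a pseudocount of 0.1 CPM, 6 and 14 with 5 CPM, and 14 and 50 with a floor of 5 CPM. No paired analysis was possible because there is 1 library per genotype and no test was made. Leaving out a replicate was not possible for the same reason. List directions also moved with scaling: with library totals, other muscle ligase genes had 7 below 0 and 16 above instead of 15 and 8. Depth limits Asb12, Asb14 and Asb15, with 61 reads or fewer in each library. Asb11 also had few reads in the mutant, 58, and the interval of its heterozygote-to-mutant ratio was 2.26 to 4.20.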
